A study of Saccharomyces cerevisiae with 12 samples.

Results

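The genes examined were 10 genes of Saccharomyces cerevisiae that are induced by mating pheromone: KAR4, AGA1, FIG2, FUS1, FUS2, PRM1, FIG1, PRM6, PRM7 and PRM9. Every probe set annotated to them on Affymetrix Yeast Genome 2.0 arrays was taken, whatever its values. This gave 11 of the 5498 probe sets with an S. cerevisiae gene, for 10 of 5449 genes, because PRM7 carried 2 probe sets (1776766_at and 1776844_at). None of the 11 had the suffix that marks probes shared between genes, and all 11 lay above the array background on all 12 arrays.

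The study asked which genes respond to the transcriptional activator Mss11 and to its partner Flo8 in a pair of laboratory strains, and to the cell wall adhesin Flo11 that both control. The Sigma strain was Σ1278b, MATα by the labels, with hisG disruptions of HIS3, LEU2 and TRP1 and the ura3-52 allele, and the S288c strain was BY4742. By the paper BY4742 is MATα with deletions in HIS3, LEU2, LYS2 and URA3, and S288c carries a nonsense mutation in FLO8. The Sigma samples fall into a first and a second set by their sample codes. A first Sigma set held 3 cultures that overexpressed FLO11 from the strong constitutive PGK1 promoter on a multicopy vector, and 3 wild-type cultures with the empty vector. A second Sigma set held 1 array each of FLO8 on a multicopy vector, MSS11 on a multicopy vector, an mss11 deletion with the empty vector, and a wild type with the empty vector. By the paper the deletion replaced MSS11 with LEU2. S288c was represented by 1 array with MSS11 on a multicopy vector and 1 wild type with the empty vector. All cultures were 5 ml of synthetic dropout medium with 2% glucose at 30 °C, and no pheromone treatment is named in the labels. The growth stage is early stationary phase by the labels but mid-exponential phase in the text of the paper. The mating type of Sigma also differs between the sources, since a strain list of the paper has MATa for the genotype that the labels have as MATα.

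Haploid yeast cells mate when pheromone from a cell of the opposite mating type binds a receptor, which releases a G protein that activates a MAP kinase cascade ending at the transcription factor Ste12. Ste12 binds pheromone response elements and induces genes for agglutination, polarised growth, cell fusion and nuclear fusion. MATα cells transcribe α-specific genes and do not activate a-specific genes. The same cascade shares kinases and Ste12 with the filamentous growth pathway, in which FLO11 is a target, and that pathway also acts through Tec1.

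The manipulated genes followed their labels. FLO11 lay at 14.81 to 14.88 (log2 RMA signal, the unit of all levels below) on the 3 arrays with FLO11 overexpression, against 11.95 to 12.27 on the 3 first-set wild-type arrays. FLO8 lay at 14.65 with FLO8 overexpression, against 10.34 in the second-set wild type. MSS11 lay at 12.29 with MSS11 overexpression and at 6.87 in the mss11 deletion, against 8.22 in the second-set Sigma wild type, and at 11.45 with MSS11 overexpression in S288c, against 8.49 in S288c wild type. The plasmid marker differed between the sets. URA3 lay at 8.40 to 8.71 in the first set and at 14.32 to 15.00 on the other 6 arrays, so the sets are not interchangeable. LEU2, disrupted in Sigma by the labels, lay at 14.74 to 15.00 in the first set, at 14.30 in the mss11 deletion and at 12.93 to 13.04 on the other second-set Sigma arrays. On the S288c arrays it lay at 7.40 with MSS11 overexpression and at 7.06 in wild type, so the S288c and second-set Sigma arrays differed in LEU2 signal as well. Replicate arrays correlated at r = 0.997 to 0.998 across probe sets.

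Mating type was checked with marker transcripts. The α-specific genes STE3, MF(ALPHA)1, MF(ALPHA)2 and SAG1 lay between 11.59 and 14.71 on all 12 arrays. None of the 4 differed by 2-fold between the wild types of S288c (BY4742, MATα by the paper) and Sigma. The 7 a-specific genes (STE2, MFA1, MFA2, STE6, BAR1, AGA2 and ASG7) lay between 4.87 and 8.55 on the 10 Sigma arrays, and all 7 were above background on every array. Within Sigma the α-specific genes thus lay above all the a-specific ones, which goes with the MATα of the labels. In S288c they lay at 7.19 to 10.71 with MSS11 overexpression and at 8.54 to 12.14 in wild type. All 7 were above every Sigma array in S288c wild type, and all but STE6 (7.69) were so in S288c with MSS11 overexpression. Their summed linear signal was 3444 with MSS11 overexpression and 9158 in wild-type S288c, and 744 to 1131 on the Sigma arrays. These a-specific signals in S288c go against its MATα name, so S288c is not a clean MATα reference for Sigma. The a-specific difference between the strains stands beside every S288c result below, and its part in those results was not tested. In bulk RNA, a few cells with much transcript and many cells with little transcript cannot be told apart.

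The 10 genes were spread over most of the range of the array. KAR4 encodes the transcription factor that, with Ste12, induces the genes of nuclear fusion. Its probe set lay between 10.88 in the mss11 deletion and 12.42 in S288c wild type. AGA1 encodes the cell wall anchor of a-agglutinin and FIG2 a cell wall adhesin of mating cells. AGA1 lay between 10.05 in the mss11 deletion and 12.71 in S288c wild type, and FIG2 between 9.51 on a first-set wild-type array and 11.37 in S288c wild type. FUS1 and FUS2 act at the tip of the mating projection in cell fusion, and PRM1 in fusion of the plasma membranes. FUS1 spanned 10.01 to 12.18, FUS2 8.23 to 9.63 and PRM1 7.35 to 10.88, with S288c wild type the highest array in each case. FIG1, a membrane protein needed for calcium uptake during mating, and PRM6, a potassium transporter also called KCH2, were the dimmest. FIG1 lay at 4.89 to 5.38 on 9 of 10 Sigma arrays, where the background was 4.81 to 4.90, so ratios taken against those arrays are compressed. PRM6 lay between 5.88 on a first-set wild-type array and 9.29 in S288c wild type.

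The functions of PRM7 and PRM9 in mating are not known, and PRM9 belongs with its paralog PRM8 to the DUP240 family of membrane proteins. Both stood apart from the other 8 genes in the order of the groups. The PRM7 probe set 1776766_at was highest in S288c with MSS11 overexpression, at 11.33, and lowest on a first-set wild-type array, at 8.80, with S288c wild type at 8.85. The PRM7 probe set 1776844_at was also highest in S288c with MSS11 overexpression, at 9.90, and lowest in the second-set Sigma wild type, at 6.37. PRM9 was lowest on the 3 FLO11 arrays, at 7.20 to 7.31, and highest in S288c with MSS11 overexpression, at 8.61.

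**Figure D1:**
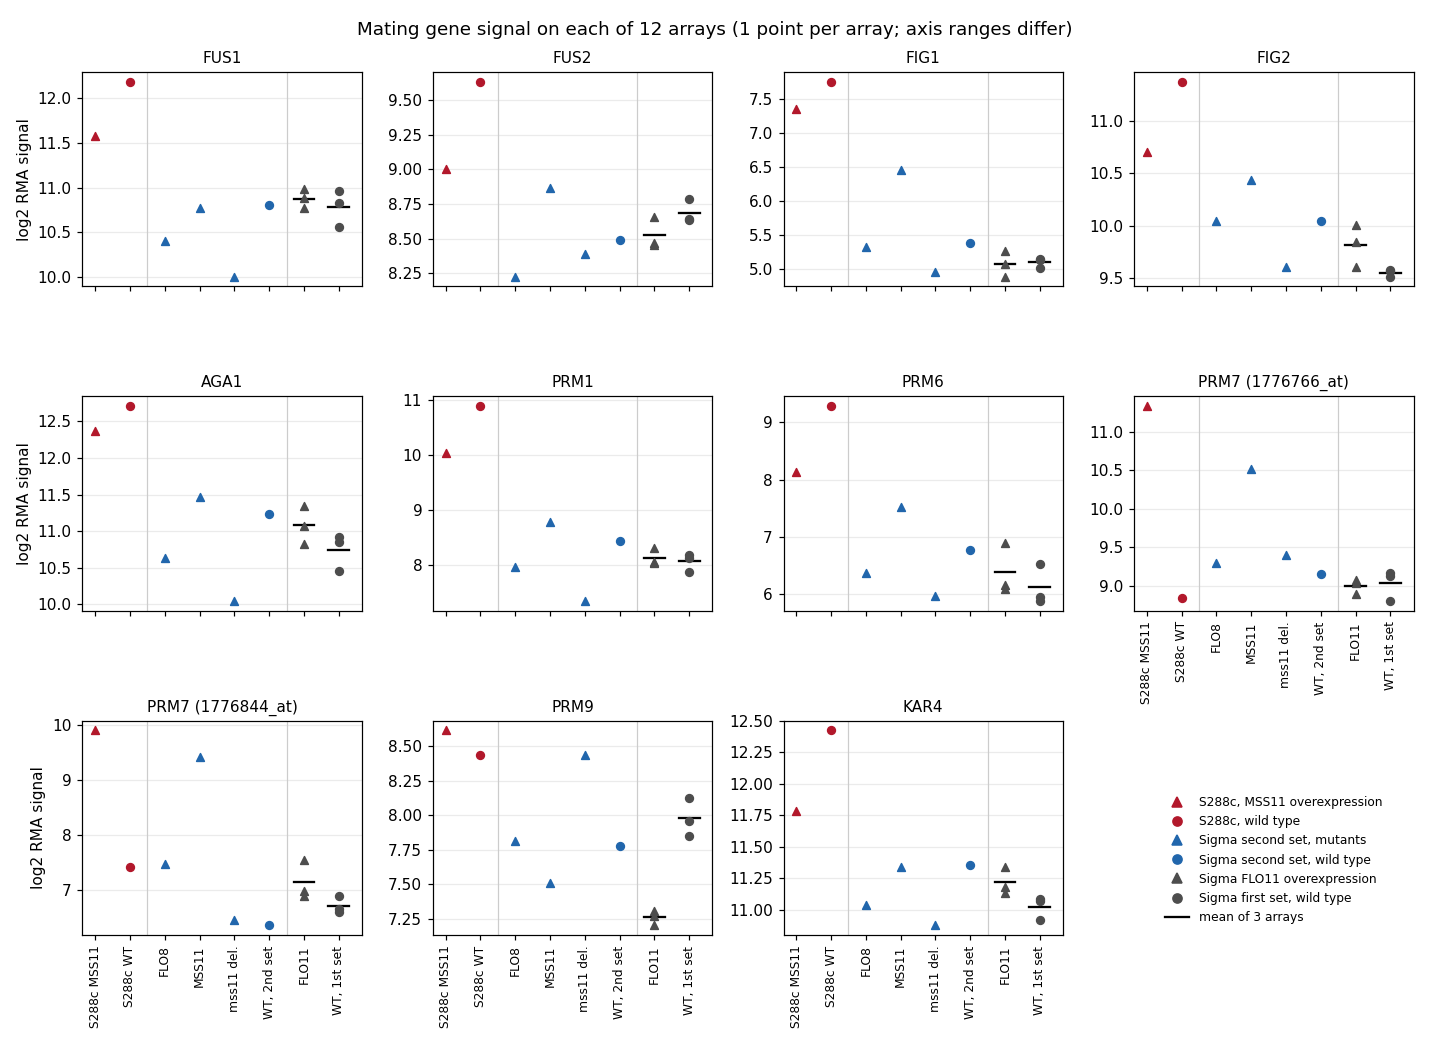
log2 RMA signal (y axis, own range in each panel) of each of the 11 probe sets on the 12 arrays, grouped along the x axis by strain, set and genotype, with triangles for manipulated strains, circles for wild types and a bar for the mean of 3 arrays. In 8 genes the S288c wild-type array is the highest point, whereas both PRM7 panels peak with MSS11 overexpression and the PRM9 panel has its minimum in the FLO11 group.

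The order of the 8 group levels can be read against the replicate SD of each probe set, which was pooled over the 2 groups with 3 arrays and ranged from 0.10 for FUS2 and KAR4 to 0.40 for PRM6. For FUS1, FUS2, FIG1, FIG2, AGA1, PRM1, PRM6 and KAR4, S288c wild type was first and S288c with MSS11 overexpression second, and each of these steps exceeded 1 SD. A difference between single arrays varies more than 1 array does, so a step just past 1 SD does not settle the order. Such steps were AGA1 between the S288c arrays (0.34, SD 0.26) and FUS2 between the MSS11 arrays of S288c and Sigma (0.14, SD 0.10). The mss11 deletion was last for FUS1, FIG1, AGA1, PRM1, PRM6 and KAR4. The step above it exceeded 1 SD for FUS1 (0.39), AGA1 (0.59), PRM1 (0.61) and KAR4 (0.15), but not for FIG1 (0.12) or PRM6 (0.14). In the middle of the order many neighbours lay within 1 SD. In FUS1, for example, Sigma with FLO11 overexpression, second-set wild type, first-set wild type and MSS11 overexpression lay within 10.78 to 10.88, and the steps between them were 0.07 or less.

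FLO11 overexpression, the only comparison with replicates, addressed whether a high level of the adhesin itself alters transcription. Of the 11 probe sets only PRM9 fell, and none rose. In the limma test 349 of 5498 probe sets (6.35%) passed an adjusted p of 0.05, 209 (3.8%) higher and 140 (2.55%) lower. The median log2 difference was 0.10 over the 11 probe sets and -0.01 over all probe sets, and 4 of the 11 had an unadjusted p under 0.05, against 1264 (23%) of all probe sets.

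PRM9 lay at 7.20, 7.27 and 7.31 with FLO11 overexpression, against 7.96, 7.85 and 8.13 in wild type. The groups did not overlap, and the difference exceeded the spread of either group. PRM9 averaged 7.26 ± 0.05 with FLO11 overexpression and 7.98 ± 0.14 in wild type (SD, n = 3 each), a log2 difference of -0.72 (SE 0.08, limma adjusted p = 0.00326). Its signal was thus 0.61 of the wild-type signal. PRM8, its paralog, lay at 10.37, 10.65 and 10.40 with FLO11 overexpression, against 10.27, 10.33 and 10.38 in wild type, with a log2 difference of 0.15 and a limma adjusted p of 0.329.

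The adhesin gene FIG2 lay at 10.005, 9.84 and 9.60 with FLO11 overexpression, against 9.51, 9.56 and 9.58 in wild type. All 3 FLO11 arrays were above all 3 wild-type arrays, the lowest of them only just. The log2 difference was 0.26 (SE 0.10, limma adjusted p = 0.162), and without the third FLO11 array it was 0.37 (limma adjusted p = 0.0462). KAR4 lay at 11.34, 11.13 and 11.18 with FLO11 overexpression, against 11.09, 11.07 and 10.91 in wild type, again without overlap, and its log2 difference was 0.20 (SE 0.07, limma adjusted p = 0.171). PRM9, FIG2 and KAR4 were the 3 of 11 probe sets whose groups did not overlap, and over all probe sets 29.5% did not overlap.

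The remaining probe sets overlapped between the groups. AGA1 lay at 11.35, 11.07 and 10.82 with FLO11 overexpression, against 10.93, 10.86 and 10.45 in wild type (log2 difference 0.33, SE 0.16, limma adjusted p = 0.279). The PRM7 probe set 1776844_at lay at 7.56, 6.98 and 6.90 with FLO11 overexpression, against 6.65, 6.91 and 6.60 in wild type (log2 difference 0.42, SE 0.17, limma adjusted p = 0.203). Its other probe set had a log2 difference of -0.04. Neither probe set of PRM7 passed the test. FUS1 differed by 0.10, FUS2 by -0.16, FIG1 by -0.03, PRM1 by 0.06 and PRM6 by 0.27 on the log2 scale, with limma adjusted p-values from 0.246 to 0.892.

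**Figure D2:**
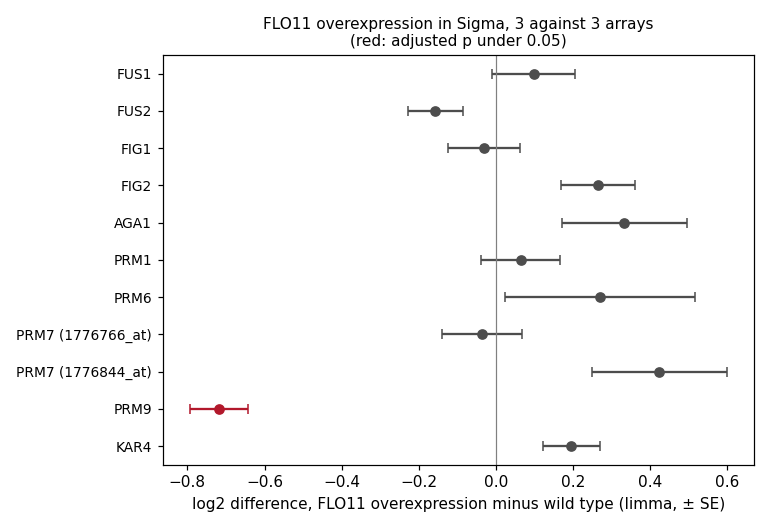
log2 difference between FLO11 overexpression and wild type in Sigma (x axis) for the 11 probe sets (y axis), as limma estimates ± SE over 3 against 3 arrays. PRM9, in red, lies at -0.72 and is the only one past an adjusted p of 0.05.

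A few other mating transcripts passed the limma test in the same comparison, where 6.35% of all probe sets passed. AGA2, the a-specific partner subunit of Aga1, lay at 6.57, 5.93 and 6.05 with FLO11 overexpression, against 5.28, 5.44 and 5.01 in wild type (log2 difference 0.94, limma adjusted p = 0.0282). The wild-type values lay near the background of those arrays (4.81 to 4.87), so the ratio is compressed. AGA2 was the only 1 of 7 a-specific genes that passed, and their summed linear signal was 934 to 1021 with FLO11 overexpression and 848 to 875 in wild type. The α-factor gene MF(ALPHA)2 rose by 0.52 (limma adjusted p = 0.00457), the only 1 of 4 α-specific genes that passed. Of 19 genes of the pheromone signalling cascade, FUS3 (the MAP kinase, 0.23, limma adjusted p = 0.0454) and TEC1 (the filamentation partner of Ste12, 0.34, limma adjusted p = 0.0321) rose, and DIG2 (an inhibitor of Ste12) fell by 0.24 (limma adjusted p = 0.0379). Of 17 further pheromone-induced genes only FUS3, which is in both lists, passed. Of 14 genes of cell and nuclear fusion none passed in limma, and 5 had an unadjusted p under 0.05, where 23% of all probe sets did.

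MSS11 overexpression in Sigma was measured on 1 array against 1 wild-type array of the second set, so these differences have no replicate check. A probe set was called where it differed at least 2-fold and the brighter array was above background. PRM7 and FIG1 were higher with MSS11 overexpression, and no probe set of the 10 genes was called lower. The 3 of 11 called higher, which include both probe sets of PRM7, compare with 52 of all 5498 probe sets (0.946%). The genes were chosen with earlier results of these data known, so this contrast is a description and not a test. The median log2 difference was 0.38 over the 11 probe sets and 0.01 over all.

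PRM7 was the largest of these differences. Probe set 1776844_at lay at 9.42 with MSS11 overexpression, against 6.37 in the second-set wild type, a log2 difference of 3.05 (8.27-fold), and the 3 first-set wild-type arrays lay at 6.65, 6.91 and 6.60. Probe set 1776766_at lay at 10.51 with MSS11 overexpression, against 9.16 in the second-set wild type (1.35, 2.55-fold) and 8.80, 9.13 and 9.17 in the first-set wild types. On both probe sets the MSS11 array was above all 9 other Sigma arrays. The differences were 10.9 and 8.57 times the replicate SD of 1 array. That SD comes from the first set only, and a difference between single arrays varies more than 1 array does. In a limma fit over all 12 arrays, in which a lone array is assumed to vary like the replicated ones, the adjusted p-values were 0.00284 and 0.0113.

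FIG1 lay at 6.46 with MSS11 overexpression, against 5.38 in the second-set wild type, a log2 difference of 1.07 (2.10-fold, 7.66 times the replicate SD, limma adjusted p over 12 arrays 0.0203). The other 9 Sigma arrays lay between 4.89 and 5.38. Those lay at most 0.50 above their background on the log2 scale, so the ratio is compressed. PRM6, the other gene of ion transport, lay at 7.51 with MSS11 overexpression, against 6.77 in the second-set wild type, which is 0.75 and under the 2-fold threshold. Against the mean of the first-set wild types the PRM6 difference was 1.399. The replicate arrays of PRM6 themselves spanned 5.88 to 6.90.

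The remaining genes differed less. FIG2 (0.39), FUS2 (0.38), PRM1 (0.34) and AGA1 (0.24) were higher with MSS11 overexpression and KAR4 (-0.02), FUS1 (-0.03) and PRM9 (-0.27) were lower, all under 2-fold. PRM9 lay at 7.51 with MSS11 overexpression, against 7.78 in the second-set wild type. All 17 further pheromone-induced genes had positive log2 differences, from 0.04 to 0.55, with none called at 2-fold and none past an adjusted p of 0.05 in the 12-array limma fit, where 6 had an unadjusted p under 0.05, against 575 (10.5%) of all probe sets. Of the 7 a-specific genes AGA2 was called (6.90 with MSS11 overexpression, against 5.18 in wild type, near its background of 4.88), and their summed linear signal was 1131 with MSS11 overexpression and 784 in wild type. The part of the a-specific transcripts in the FIG1 and PRM7 values was not tested.

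In S288c, MSS11 overexpression was again associated with a higher level of PRM7, whereas 8 of the other 9 genes had lower signals than wild type. At 2-fold, 2 of 11 probe sets, both of PRM7, were called higher and 1, of PRM6, lower, against 68 (1.24%) higher and 24 (0.437%) lower of all 5498. The median log2 difference was -0.61 over the 11 probe sets and -0.02 over all.

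Both PRM7 probe sets differed by 2.48 on the log2 scale. Probe set 1776844_at lay at 9.90 with MSS11 overexpression, against 7.42 in S288c wild type, and probe set 1776766_at lay at 11.33, against 8.85. The signal was 5.58-fold higher for 1776844_at (limma adjusted p over 12 arrays 0.00363) and 5.59-fold higher for 1776766_at (0.000413). PRM7 and the annotation YDL038C are listed as 1 gene in RefSeq (R64), and which part of it each probe set reads is not given. The neighbouring gene BSC1 was below background on all 12 arrays, at 4.58 with MSS11 overexpression in S288c, against 3.55 in S288c wild type.

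PRM6 lay at 8.14 with MSS11 overexpression, against 9.29 in S288c wild type, a log2 difference of -1.15 that passed 2-fold, but its adjusted p in the 12-array limma fit was 0.131. PRM1 lay at 10.03, against 10.88 in wild type (-0.85, limma adjusted p 0.0253). FIG2 lay at 10.70, against 11.37 in wild type (-0.67, limma adjusted p 0.0431). These genes were thus lower with MSS11 overexpression in S288c but remained above every Sigma array. KAR4 (-0.64), FUS2 (-0.63) and FUS1 (-0.61) differed by similar amounts, FIG1 (-0.39) and AGA1 (-0.34) by less, and PRM9 (0.18) was slightly higher. The 12-array limma fit called 6 of 11 probe sets, both of PRM7 higher and FUS2, FIG2, PRM1 and KAR4 lower, where it called 680 of all probe sets (12.4%).

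All 7 a-specific genes were lower with MSS11 overexpression in S288c, by 0.85 to 1.61 on the log2 scale, and 6 of them passed 2-fold. STE2, the receptor for α-factor, lay at 10.71 with MSS11 overexpression, against 12.14 in S288c wild type. The 4 α-specific genes differed by 0.04 to 0.20. Among the 17 further pheromone-induced genes 15 had negative differences, none past 2-fold, and PRM5 (-0.79), a pheromone-regulated membrane protein, and KAR5 (-0.79), a nuclear membrane protein of karyogamy, differed most. The part of the a-specific transcripts in the lower mating gene signals was not tested.

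**Figure D3:**
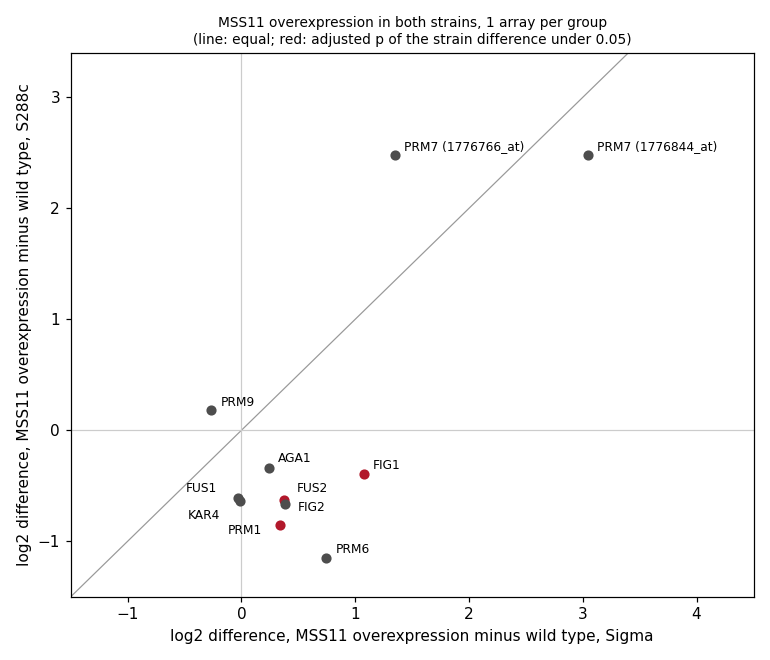
log2 difference between MSS11 overexpression and wild type in S288c (y axis) against that in Sigma (x axis) for each of the 11 probe sets, from 1 array per group, with a line of equal differences. Both PRM7 probe sets lie at 2.48 in S288c, while FIG1, PRM1 and FUS2, in red, lie below the line with an adjusted p of the strain difference under 0.05.

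Whether MSS11 overexpression acted differently in the strains was tested as an interaction in the 12-array limma fit, with the spread taken from the replicated Sigma groups. FIG1, FUS2 and PRM1 passed, all with a lower value in S288c than in Sigma, and 9 of the 11 interaction estimates were below 0. Over all probe sets 262 (4.77%) passed, 179 of them (3.26%) negative. FIG1 differed by -0.39 in S288c and by 1.07 in Sigma, giving an interaction of -1.47 (SE 0.23, limma adjusted p = 0.0197). FUS2 differed by -0.63 in S288c and by 0.38 in Sigma (interaction -1.005, SE 0.17, limma adjusted p = 0.0286), and PRM1 by -0.85 in S288c and by 0.34 in Sigma (interaction -1.19, SE 0.25, limma adjusted p = 0.0469). FIG1 kept its call when any 1 of the 6 replicated arrays was left out, but FUS2 lost it without the second first-set wild type (limma adjusted p = 0.0611) and PRM1 lost it without wild-type replicate 1 or 2 or FLO11 replicate 2 or 3 (limma adjusted p from 0.0632 to 0.076), and with each array centred on its median (limma adjusted p = 0.0511).

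FIG2 (-1.05, limma adjusted p = 0.0512) and PRM7 1776766_at (1.13, limma adjusted p = 0.0512) fell just short of the threshold, and with median centring this PRM7 probe set passed (limma adjusted p = 0.0471). PRM7 1776844_at had an interaction of -0.57 (SE 0.43, limma adjusted p = 0.479), so the PRM7 probe sets differed in sign. PRM6 had the most negative estimate, -1.89, with an SE of 0.60 and a limma adjusted p of 0.123. All 7 a-specific genes passed in the same direction, from -1.07 for STE6 to -3.28 for AGA2. Of the 17 further pheromone-induced genes, all were below 0 and PRM4 (-0.73) and KAR5 (-0.85) passed.

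In the mss11 deletion in Sigma the agglutinin anchor and a fusion gene had lower signals than in the second-set wild type, on 1 array each. AGA1 and PRM1 were called lower, 2 of 11 probe sets, against 13 of all probe sets (0.236%), and none was called higher. The median log2 difference was -0.44 over the 11 probe sets and 0.00 over all. The deletion also carries LEU2 as its marker (LEU2 at 14.30, against 13.04 in the second-set wild type). The part of this marker in the differences was not tested.

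AGA1 lay at 10.05 in the mss11 deletion, against 11.23 in the second-set wild type, a log2 difference of -1.18 (2.27-fold lower). PRM1 lay at 7.35 in the mss11 deletion, against 8.44 in the second-set wild type (-1.09, 2.13-fold lower). For both genes the deletion was the lowest of the 12 arrays, below the first-set wild types, which lay at 10.93, 10.86 and 10.45 for AGA1 and at 8.13, 8.18 and 7.88 for PRM1. Against the mean of the first-set wild types the differences were smaller, -0.70 for AGA1 and -0.72 for PRM1, and neither passed 2-fold. The 12-array limma fit, which called 40 of all probe sets (0.728%), called neither (adjusted p = 0.187 for AGA1 and 0.0534 for PRM1).

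FUS1 lay at 10.01 in the mss11 deletion, against 10.81 in the second-set wild type (-0.80), and was also at its minimum there. PRM6 (-0.80), KAR4 (-0.48), FIG2 (-0.44), FIG1 (-0.43) and FUS2 (-0.10) had lower signals too, under 2-fold. The first-set wild-type means lay closer to the deletion for PRM6 (6.12, against 5.97), KAR4 (11.02, against 10.88) and FIG1 (5.10, against 4.96). For FIG2 the first-set mean was below the deletion (9.55, against 9.60), and for FUS2 it was further above it (8.69, against 8.39). Much of these differences thus rests on the single second-set wild type. PRM7 did not mirror its value under overexpression. Its probe sets lay at 9.40 and 6.46 in the mss11 deletion, against 9.16 and 6.37 in the second-set wild type, differences of 0.24 and 0.09 that were 1.52 and 0.33 times the replicate SD. PRM9 lay at 8.44 in the mss11 deletion, against 7.78 in the second-set wild type, a log2 difference of 0.66 or 6.17 times the replicate SD, and all other Sigma arrays were below 8.44 (limma adjusted p over 12 arrays 0.1).

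Among α-specific genes, MF(ALPHA)2 (11.59 in the mss11 deletion, against 12.84 in the second-set wild type) and SAG1, which encodes α-agglutinin (12.20, against 13.29 in wild type), were called lower. The first-set wild-type means were lower, at 12.53 and 12.99, and against them neither gene differed by 2-fold. STE3 (11.84, against 11.89 in the second-set wild type) and MF(ALPHA)1 (14.59, against 14.63) differed little. The 12-array limma fit called 1 of the 4 α-specific genes lower. No a-specific gene was called, and their summed linear signal was 744 in the mss11 deletion and 784 in wild type. None of the 17 further pheromone-induced genes passed 2-fold, with 11 below and 6 above 0. The pheromone cascade did not pass 2-fold in any of 19 genes, and FAR1, which arrests the cell cycle, had the largest difference at -0.63.

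FLO8 overexpression in Sigma differed from the second-set wild type by less than 2-fold in 10 of 11 probe sets. The exception was PRM7 1776844_at, called higher against a background of 26 of 5498 probe sets (0.473%). It lay at 7.47 with FLO8 overexpression, against 6.37 in the second-set wild type (log2 difference 1.11, 2.15-fold). Relative to the first-set wild types at 6.65, 6.91 and 6.60 the difference was 0.75, and a FLO11 array reached 7.56, so the call rests on the low second-set wild type. The limma adjusted p over 12 arrays was 0.241. The other PRM7 probe set lay at 9.30 with FLO8 overexpression, against 9.16 in the second-set wild type.

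AGA1 (-0.59), PRM1 (-0.48), FUS1 (-0.41), PRM6 (-0.40), KAR4 (-0.32) and FUS2 (-0.26) had lower signals with FLO8 overexpression than in the second-set wild type. FIG1 (-0.06), FIG2 (-0.004) and PRM9 (0.03) differed less, and these 3 and PRM6 lay within 1 replicate SD. FUS1 at 10.40 was below all 3 first-set wild types (10.96, 10.82 and 10.55), and FUS2 at 8.23 was the lowest of the 12 arrays. AGA1 at 10.64 and PRM1 at 7.96 fell inside the range of the first-set wild types. No a-specific, α-specific or further pheromone-induced gene was called in this comparison.

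**Figure D4:**
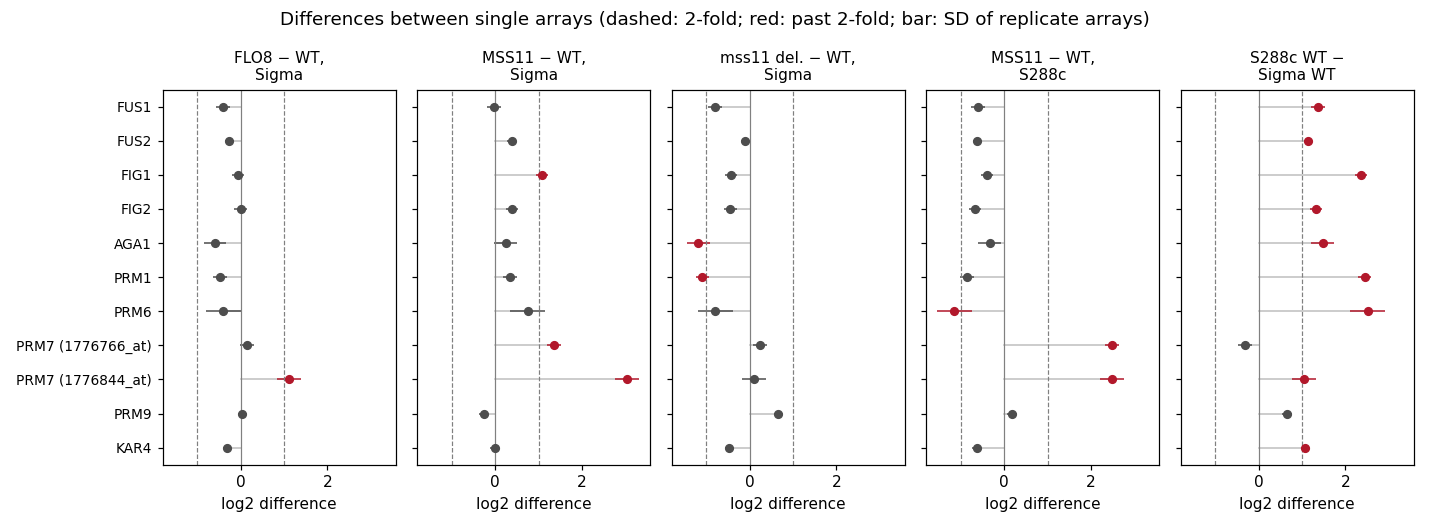
log2 difference (x axis) of the 11 probe sets (y axis) in the 5 comparisons with 1 array per group, with dashed lines at 2-fold, red points for calls and bars of 1 replicate SD of a single array on either side. PRM7 is past 2-fold in both MSS11 panels, and 9 of 11 points are past it in the panel of S288c against Sigma.

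Wild-type S288c had signals at least 2-fold higher than wild-type Sigma for 8 of the 10 genes and for 1 of the 2 probe sets of PRM7. At 2-fold 9 of 11 probe sets were called higher and none lower, against 293 of 5498 (5.33%) higher. The median log2 difference was 1.32 over the 11 probe sets and -0.04 over all. Only 1 array stood on each side. Both carried the empty URA3 vector by the paper, and URA3 lay at 15.00 in S288c and at 14.73 in Sigma. Strain and sequence differences under the probes cannot be told apart, and LEU2 differed as well (7.06 in S288c, 13.04 in Sigma).

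PRM6 lay at 9.29 in S288c wild type, against 6.77 in the second-set Sigma wild type, a log2 difference of 2.52 (5.73-fold). PRM1 lay at 10.88 in S288c, against 8.44 in Sigma (2.44, 5.44-fold). FIG1 lay at 7.75 in S288c, against 5.38 in Sigma (2.37, 5.16-fold), where it was near background. PRM6, PRM1 and FIG1 thus had the widest strain gaps of the 11 probe sets. AGA1 (1.48), FUS1 (1.37), FIG2 (1.32), FUS2 (1.14), KAR4 (1.07) and PRM7 1776844_at (1.05) followed, each above all 10 Sigma arrays except PRM7, which was exceeded by 3 of them. PRM9 lay at 8.44 in S288c, against 7.78 in Sigma (0.66), and the PRM7 probe set 1776766_at at 8.85, against 9.16 in Sigma (-0.31), so that the probe sets of PRM7 did not point the same way.

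Relative to the mean of the first-set Sigma wild types 7 probe sets were called, without FUS2 (0.94) and PRM7 1776844_at (0.70). The other pheromone-induced genes were mixed. Of 17, 7 were called higher, among them PRM2 (3.57), which acts in karyogamy, SST2 (1.25), the regulator that desensitises the pheromone response, and the paralog of PRM9, PRM8 (1.20), and 1 was called lower, FUS3 (-1.03). The 19 genes of the cascade had a median of -0.05, with FUS3 the only one past 2-fold. The 7 a-specific genes were all called higher, by 1.21 for STE6 to 5.29 for AGA2, and none of the 4 α-specific genes was called. AGA2 and PRM2, both at 5.18 in Sigma, lay near the background of that array (4.88). The part of the a-specific transcripts in the strain gap of the mating genes was not tested.

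**Figure D5:**
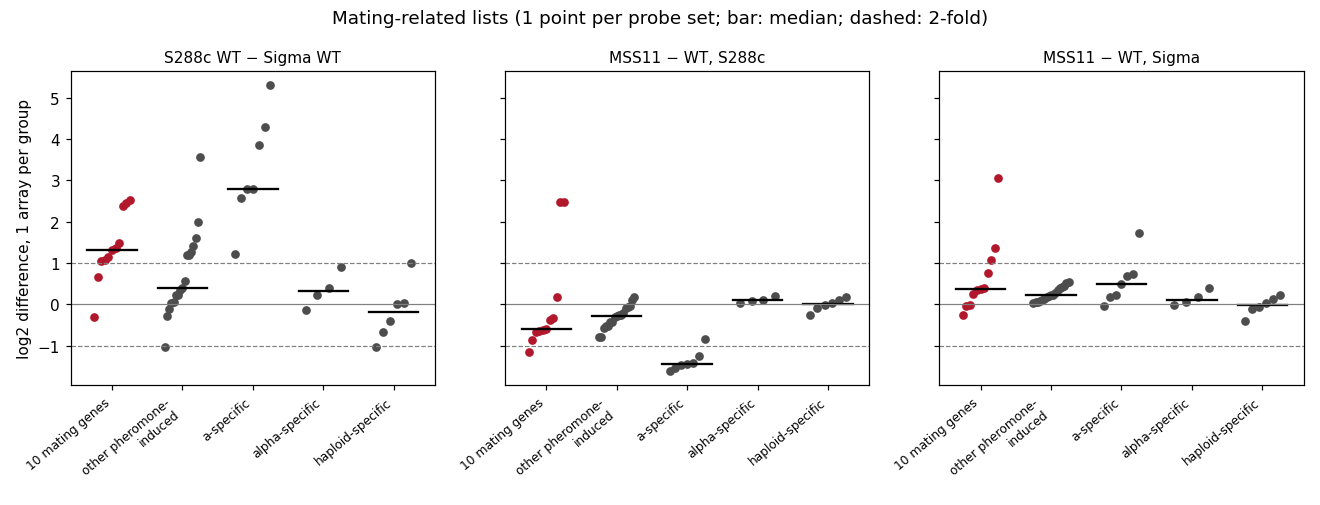
log2 differences (y axis, 1 array per group) of the probe sets in each mating-related list (x axis) for S288c against Sigma wild type, for MSS11 overexpression in S288c and for MSS11 overexpression in Sigma, with bars for medians and dashed lines at 2-fold. The medians of the 10 mating genes are 1.32, -0.61 and 0.38, and those of the a-specific genes 2.79, -1.46 and 0.48. Both comparisons with S288c share its single wild-type array, with opposite signs.

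The second-set Sigma wild type is a single array shared by 4 of these comparisons, so their values are not independent of each other. S288c wild type is also a single array. It entered the strain comparison with a positive sign and the MSS11 comparison in S288c with a negative sign, so those values are linked as well. Between the second-set and first-set Sigma wild types none of the 11 probe sets differed by 2-fold, where 85 of all probe sets (1.55%) did. PRM6 was 0.65, FIG2 0.49, AGA1 0.49, PRM1 0.37 and KAR4 0.33 higher in the second-set wild type than in the mean of the first set, while PRM7 1776844_at was 0.35 lower. The differences of FIG2 and KAR4 were over 3 times the replicate SD. Strain construction is the same by the labels, whereas the plasmid marker and the set differ and cannot be told apart.

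Likeness of profiles was described with Pearson's r over all 12 arrays, which share strain and set differences. Each gene was set against the mean of the other members. FIG1 (0.98), PRM1 (0.98), PRM6 (0.96), AGA1 (0.94), FIG2 (0.94), KAR4 (0.93), FUS2 (0.87) and FUS1 (0.85) followed that mean closely, and PRM9 (0.42) and PRM7 1776766_at (0.38) did not. Over the 10 Sigma arrays alone, a restriction added after the strain gap was seen, FUS1 (0.35) and PRM9 (-0.51) departed most, and PRM6 (0.91) and FIG1 (0.91) stayed closest. The non-member genes nearest to the mean of the members were HXT9 (0.97), STE2 (0.96), MFA2 (0.96), YIL082W-A (0.96) and NIS1 (0.96) over 12 arrays, and YPR078C (0.94), TRK2 (0.89), MSS11 (0.87), ATM1 (0.86) and PRM3 (0.86) over the 10 Sigma arrays. HXT9 varied by 1.52 and TRK2 by 0.31 on the log2 scale, and the a-specific STE2 by 4.73.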

How the data were processed

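RNA of 12 cultures was hybridised by the authors to Affymetrix Yeast Genome 2.0 arrays, background corrected and normalized with RMA, whose version is not given in the sources used here. Deposited values were linear RMA intensity per probe set. They were converted to log2 here. Probe sets were named from the platform annotation, with symbols updated through RefSeq (12 changed), and 5498 with an S. cerevisiae gene were tested, while 1747 probe sets of Schizosaccharomyces pombe and 3683 not listed were left out. As background, each array's 95th percentile over the Schizosaccharomyces pombe probe sets was used (4.77 to 4.90, log2). The number of arrays limits the precision.

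FLO11 overexpression was compared with the first-set wild type by limma 3.58.1 (R 4.3.3; lmFit, eBayes, two-sided, Benjamini-Hochberg over all 5498 probe sets, threshold 0.05), with 3 arrays each and no covariates. The same fit over all 12 arrays gave the interaction and, as an alternative, the comparisons with 1 array per group, which otherwise carry no test and used a 2-fold threshold with the brighter array above background. The labels call the replicates biological. Symbol-level lists comprised a-specific, α-specific, haploid-specific, further pheromone-induced, signalling and fusion genes. All members, the manipulated and marker genes, PRM7's neighbours, PRM8, KCH1, the list genes past a threshold and the 5 nearest profiles were named. The members and lists were chosen with earlier results of these data known. The fit was tested on simulated data. Alternatives covered normalization, filters, variance model, thresholds, the wild-type set, a replicate block and leaving out each replicate. No sequence is printed.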

Additional observations from a re-analysis of the deposited data

Results flagged for a closer look

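The results below were singled out because the effect of MSS11 overexpression differed between the strains by the limma interaction test (S288c minus Sigma, log2 scale, adjusted p under 0.05), with 1 array per group and the spread taken from the 2 replicated Sigma groups. Among the 10 mating genes these were FIG1 (-1.47), PRM1 (-1.19) and FUS2 (-1.005). All 3 had a positive difference in Sigma and a negative one in S288c.

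Among related mating genes KAR5 had an interaction of -0.85 and PRM4 of -0.73. The 7 a-specific genes were also singled out, with AGA2 at -3.28, STE2 at -2.11, BAR1 at -2.09, MFA2 at -1.97, MFA1 at -1.63, ASG7 at -1.44 and STE6 at -1.07. In S288c all 7 started from a wild-type level above that of every Sigma array. Among the manipulated genes MSS11 itself had an interaction of -1.10 (a difference of 2.96 in S288c and 4.06 in Sigma), and FLO11 of 2.43 (5.06 in S288c and 2.64 in Sigma).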

How the results depend on the processing

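PRM9 was lower with FLO11 overexpression and past the threshold under all 14 alternatives of that comparison, and the count of called mating probe sets stayed at 1 except without the third FLO11 array, so that it ranged from 1 to 2. The replicate numbers did not pair the arrays (correlations of same-numbered deviations 0.03, -0.12 and -0.27), and with the replicate block PRM9 kept its call and 208 of all probe sets were called in place of 349. That total was 109 with the wild types of both sets, 112 over all probe sets of the array, and 96 to 318 with a replicate left out. Small log2 differences turned sign in this comparison: FUS1 (-0.014 without the third wild type, 0.19 at the top of the range with a replicate left out), FIG1 (0.062 without the third FLO11 array, -0.12 at the bottom), PRM1 (-0.029 with both wild-type sets, -0.028 without the third wild type, -0.025 without the first FLO11 array, 0.12 at the top) and PRM7 1776766_at (0.012 without the second wild type, 0.032 without the third wild type, 0.019 without the third FLO11 array, -0.15 at the bottom).

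For the interaction, 5 mating probe sets in place of 3 passed with trend and robust options (401 of all in place of 262), and 1 to 4 with a replicate left out (99 to 244 of all). With the 12-array limma fit in place of 2-fold, 0 mating probe sets in place of 1 were called for FLO8, 0 in place of 2 for the mss11 deletion and 6 in place of 3 for MSS11 in S288c. The first-set wild types as denominator left 0 for FLO8 and 0 for the deletion. At 1.5-fold the counts were 2 for FLO8, 5 for the deletion and 8 for MSS11 in S288c, and at 3-fold 0 for FLO8, 1 for MSS11 in Sigma, 0 for the deletion and 3 for S288c against Sigma. The cause of these shifts was not tested, beyond the thresholds themselves. Totals of all probe sets moved over 1.5 times as well: at 1.5-fold and 3-fold they were 118 and 9 for FLO8, 169 and 24 for MSS11 in Sigma, 119 and 7 for the deletion, 330 and 37 for MSS11 in S288c, and 1139 and 226 between strains. With the first-set wild types they were 94, 131 and 82 for FLO8, MSS11 and the deletion in Sigma, and in the 12-array fit 102 for MSS11 in Sigma, 680 for MSS11 in S288c and 2368 between strains.

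FIG1 lay near background on most Sigma arrays, which limits its ratios, and each comparison other than FLO11 rests on 1 array per group.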

Other observations

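Haploid-specific genes, which are repressed in a/α diploids, were measured as a check on ploidy. RME1, HO, STE5, STE18, GPA1 and FUS3 were all above background on the 12 arrays. Between S288c and Sigma wild types their median log2 difference was -0.20, from -1.03 for FUS3 to 0.99 for RME1. With FLO11 overexpression HO, the mating-type switching endonuclease, lay at 11.72, 11.49 and 11.53, against 12.06, 11.88 and 11.96 in wild type (log2 difference -0.38, limma adjusted p = 0.0306).

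KCH1, the paralog of PRM6, lay between 10.16 and 10.59 on all 12 arrays, whereas PRM6 spanned 3.41 on the log2 scale. KCH1 differed by -0.10 between S288c and Sigma wild types, where PRM6 differed by 2.52, and by -0.23 with MSS11 overexpression in S288c, where PRM6 differed by -1.15.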
